A study of Canis lupus familiaris with 2 samples.

Results

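The miR-23/27/24 clusters are a pair of paralogous groups of microRNA genes, small RNAs that lower the translation and stability of mRNAs carrying matching sites. The members were found on the arrays under the names cfa-miR-23a, cfa-miR-23b, cfa-miR-27a, cfa-miR-27b and cfa-miR-24, here without the species prefix, and were matched to the deposited value table through their miRBase identifiers (MIMAT0006640, MIMAT0006612, MIMAT0006641, MIMAT0006613 and MIMAT0006614). These were 5 of the 291 dog miRNAs on each array, with 1 probe spot each, and all 5 were among the 178 miRNAs detected on both arrays. RNA came from SNP cells, a line of canine mammary gland tumour cells. The spheroid sample was grown from non-adherent cells picked out of the medium and cultured without added matrix, and the monolayer sample from adherent cells in RPMI-1640 medium with 10% fetal bovine serum. Both cultures were harvested near confluence with trypsin, and no genotype or drug treatment separated them. Each culture gave 1 RNA sample, with an integrity of 9.7 for the spheroids and 9.8 for the monolayer, and each sample was labelled with Cy5 and read on 1 array. With 1 sample per culture there was no test across samples and no p-value, the number of arrays limits the precision, and selection of non-adherent cells cannot be told apart from growth as spheroids.

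Each cluster encodes a miR-23, a miR-27 and a miR-24, cut from a shared primary transcript. In the RefSeq annotation of the dog assembly UU_Cfam_GSD_1.0, the a cluster holds MIR23A, MIR27A and MIR24-2 in that order, beyond the neighbouring genes MIR181D and MIR181C and before the coding gene ZSWIM4, with no annotated gene spanning it. The b cluster holds MIR24-1, MIR27B and MIR23B, and lies within the spans of C1H9orf3 and FANCC. MIR24-1 and MIR24-2 give rise to the same mature miR-24, so the single miR-24 probe reads the product of both clusters, and only the miR-23 and miR-27 probes are named for one cluster or the other. In human cells the mature sequences of each miR-23 and miR-27 pair are almost the same and share their seed. Whether a probe also read the paralog's RNA was not tested.

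The a cluster and the b cluster were set apart by miR-27b alone. In the spheroid array the miR-27b signal was lower than in the monolayer array, whereas miR-23a, miR-23b, miR-27a and miR-24 were close to each other in their ratios of spheroid to monolayer. In the values deposited by the authors, which are normalized intensities on a linear scale, the spheroid level of miR-27b was 0.584 of the monolayer level. The other 4 members had deposited spheroid levels of 1.03 to 1.15 times their monolayer levels. The 2 miRNAs named for the b cluster differed from each other by more than the a and b clusters did.

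miR-23 is known in human cells for repressing the mRNA of glutaminase, an enzyme of glutamine use, and is itself held down by MYC. cfa-miR-23a, of the a cluster, had a raw spot intensity of 1872 in the spheroid array and 1373 in the monolayer array. Its deposited values were 893 in spheroids and 786 in the monolayer. cfa-miR-23b, of the b cluster, had a raw intensity of 1911 in the spheroid array and 1379.6 in the monolayer array, with deposited values of 913 in spheroids and 791 in the monolayer. Both miR-23 probes were thus somewhat brighter in the spheroid array, by 1.14-fold for miR-23a and 1.15-fold for miR-23b in the deposited values.

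miR-27 is known in mouse and human cells for repressing PPARG, a regulator of fat cell formation, and FOXO1, a transcription factor that restrains growth. cfa-miR-27a, of the a cluster, had a raw intensity of 1709.9 in the spheroid array and 1378 in the monolayer array, and its deposited values of 813 in spheroids and 789.8 in the monolayer gave a ratio of 1.03. cfa-miR-27b, of the b cluster, had a raw intensity of 836 in the spheroid array and 1144 in the monolayer array, with deposited values of 378 in spheroids and 647 in the monolayer. It was the only member with a lower raw intensity in the spheroid array. The 6 control probes with 8 spots each that stood clear of the blank spots on both arrays were also lower there before scaling, with mean log2 differences of -0.35 to -0.14.

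cfa-miR-24, known in human cells for repressing cell cycle mRNAs such as those of E2F2 and MYC, had a raw intensity of 2068 in the spheroid array and 1604 in the monolayer array. Its deposited values were 991 in spheroids and 927 in the monolayer, a ratio of 1.07. miR-24 was the second brightest miRNA of the monolayer, after miR-21, and the third of the spheroids.

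**Figure D1:**
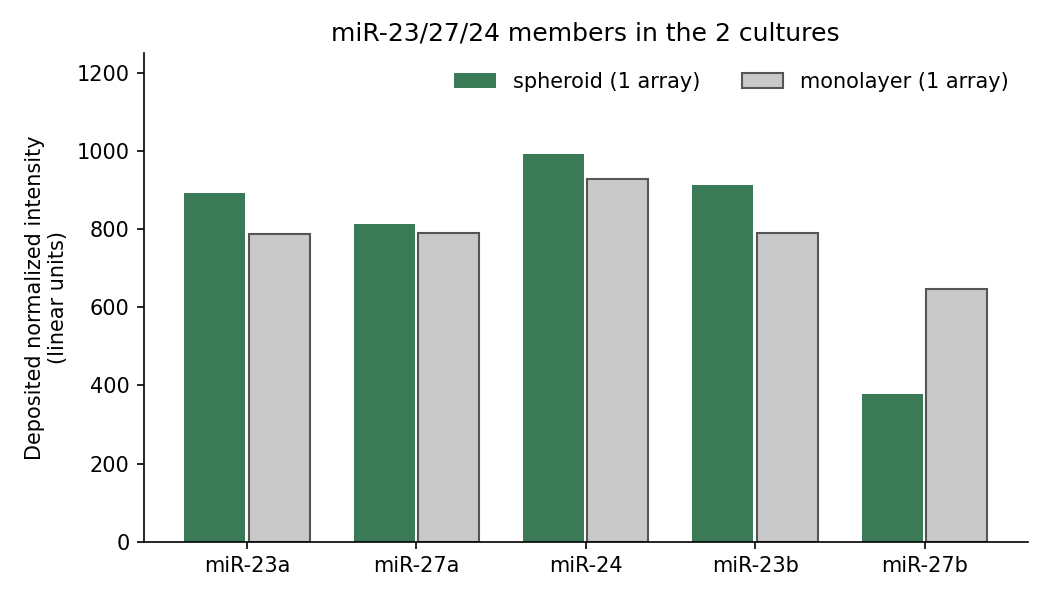
Deposited normalized intensity (linear units, vertical axis) of each member, with the spheroid array as the left bar and the monolayer array as the right bar; each bar is 1 spot on 1 array, so there are no error bars. Only miR-27b is lower in spheroids, at 378 against 647, while the other 4 members stand between 813 and 991 in spheroids and between 786 and 927 in the monolayer.

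All 5 spots stood well above the blank spots. Their raw intensities were 10.5 to 25.9 times the detection limit of the spheroid array and 12.7 to 17.9 times that of the monolayer array. That limit, 2 SD above the mean of the blank spots, was 79.8 in the spheroid array and 89.8 in the monolayer array. Together the members held 13.8% of the miRNA signal above the blank spots in spheroids and 14.9% in the monolayer. miR-27b held 1.30% in spheroids and 2.45% in the monolayer. The other 4 members held the same share on both arrays to 3 digits, at 12.5% in spheroids and 12.5% in the monolayer. By intensity miR-27b stood at place 21 of 291 in spheroids and place 8 in the monolayer, while the other members were at places 3 to 9 in spheroids and 2 to 5 in the monolayer. Probes differ in how strongly they hybridise, so these shares and places describe spots and not molecules.

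For the comparison of the cultures across all miRNAs, intensities were background corrected, taken to log2 and quantile normalized, and the spheroid minus monolayer difference was read from that scale. miR-27b had a log2 normalized level of 9.45 in spheroids and 10.4 in the monolayer, a log2 difference of -0.99. On that scale only 5 of the 178 miRNAs detected on both arrays had a lower difference. Those 5 were the ones past the 2-fold line downward, so miR-27b lay just above it. In the deposited values, which keep dim miRNAs further apart, 25 of the 178 (14%) were 2-fold or more lower in spheroids. miR-27b, at -0.78 there, was not among them. After quantile normalization the log2 differences of the other members were -0.29 for miR-24, -0.27 for miR-27a, -0.13 for miR-23a and -0.09 for miR-23b. No member was 2-fold or more apart (0 of 5), against 5.06% of the 178.

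**Figure D2:**
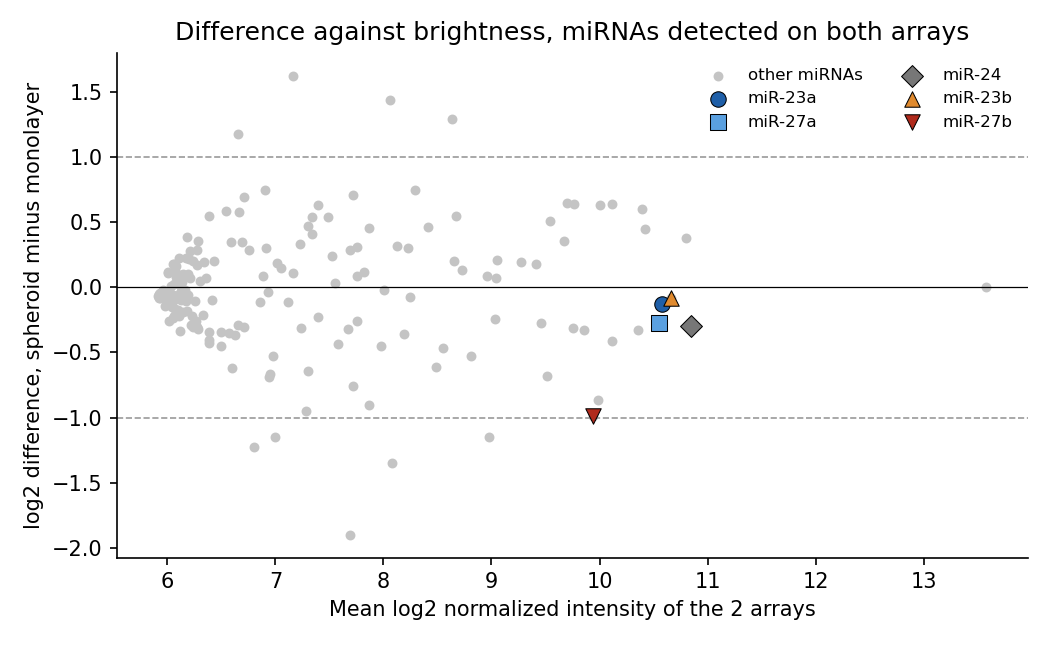
Log2 difference, spheroid minus monolayer (vertical axis), against mean log2 normalized intensity (horizontal axis) for the 178 miRNAs detected on both arrays, with the 5 members marked and dashed lines at a 2-fold difference. miR-23a, miR-23b, miR-27a and miR-24 sit together between -0.29 and -0.09, and miR-27b sits apart from them at -0.99.

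The error behind a single spot was taken from the same 6 control probes, whose pooled SD of the log2 difference was 0.065. It ranged from 0.039 to 0.085 between these probes, and the one nearest to the members in brightness, with mean intensities of 796 in spheroids and 961 in the monolayer, had an SD of 0.068. On the quantile normalized scale, more than 2 such SDs (0.13) separated the cultures for 3 of the 5 members, namely miR-27b, miR-24 and miR-27a. On that scale 68.5% of all 178 miRNAs passed the same mark. The members that passed depended on the scaling. In the deposited values miR-24 (0.10) and miR-27a (0.04) did not, whereas miR-27b (-0.78), miR-23a (0.18) and miR-23b (0.21) did. With 75th percentile scaling only miR-27b (-0.83) did. The deposited values had another background correction, and the SD was not taken on them. This SD covers spot error and leaves out variation between cultures, extractions and arrays.

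The sign of the 4 similar members was set by the normalization. All 5 members were below 0 after quantile normalization, as were 54.5% of the 178 miRNAs. In the authors' deposited values only miR-27b was (log2 difference -0.78), and the other 4 were at 0.04 to 0.21. No member was 2-fold apart in the deposited values, where 27% of the 178 were. Quantile normalization assigns values by place, and let-7a, let-7f and miR-16 stood above both miR-23 spots in the spheroid array but below them in the monolayer array. For miR-27b, 13 miRNAs were brighter than it in spheroids only, and 0 in the monolayer only. Among the 13 were let-7b, let-7c, let-7e, miR-141 and miR-200c, which were above 0 after quantile normalization. miR-106a, miR-20a, miR-221 and miR-29b were also among them, and were below 0 on that scale.

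miR-27b was below 0 under each of the 9 processings tried, from -1.05, where blank subtraction replaced normexp, to -0.17, where the spike controls set the scale. These processings also moved the median of the 178 miRNAs, by 0.66 with the spike controls, 0.14 without scaling, -0.15 after blank subtraction and -0.23 with the 75th percentile, each relative to quantile normalization. Taken relative to the median of the 178 in the same processing, miR-27b lay at -0.94 to -0.55 in all 9. On this measure median, 75th percentile and no scaling must give the same value (-0.55). The deposited values and spike control scaling must as well (-0.78). The other 4 members lay between -0.25 and 0.39 on that relative scale, on either side of 0.

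**Figure D3:**
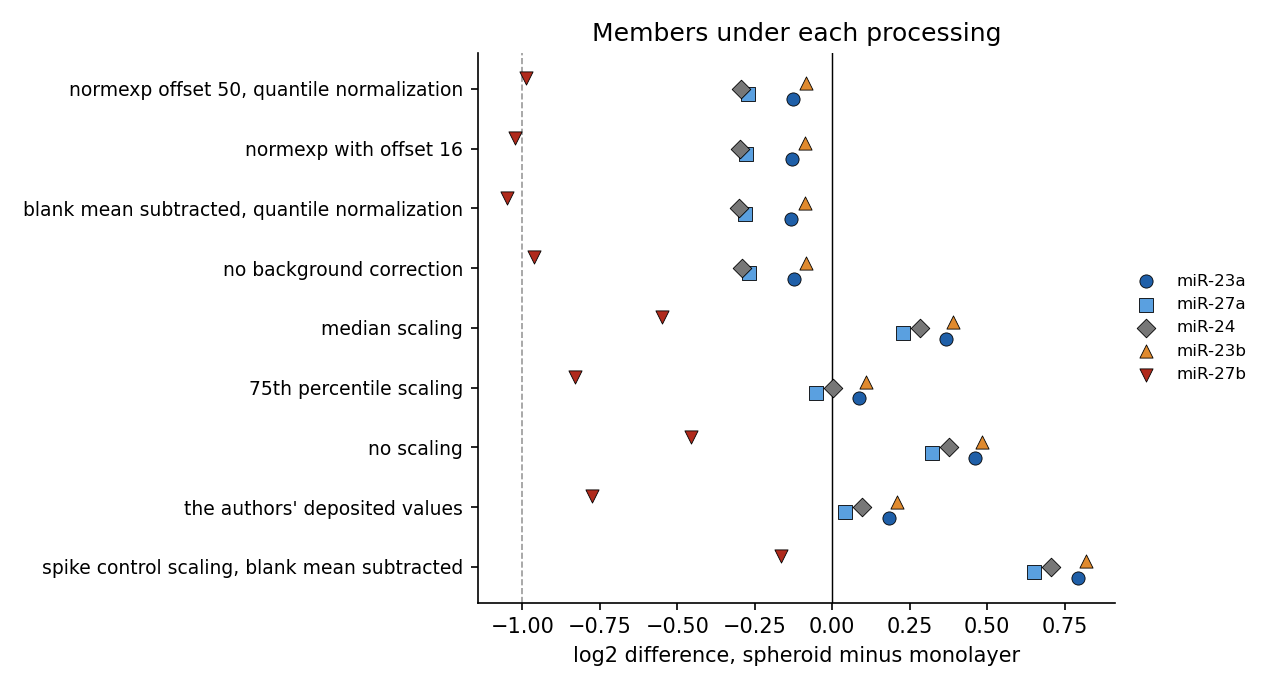
Log2 difference, spheroid minus monolayer (horizontal axis), of each member under each of the 9 processings (rows); each symbol is 1 member, the solid line marks 0 and the dashed line a 2-fold lower level in spheroids. The processings move the members sideways, though not by equal amounts, and miR-27b lies to the left of the other 4 in every row.

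A difference between 2 members is free of any factor that scales a whole array, so the paralogs were compared on that measure. The log2 difference of miR-27a was 0.72 above that of miR-27b, and the gap was 0.70 to 0.82 under the 9 processings. Median, 75th percentile and no scaling differ only by a factor on a whole array, so all gave the same gap of 0.78. The deposited values and spike control scaling likewise both gave 0.82. Agreement within either set was fixed in advance, here and for the other gaps and places below. From the spot error above, the SD of such a gap is 0.092, so 0.72 amounts to 7.77 SDs of spot error. The gap between miR-23a and miR-23b was -0.04, less than 1 such SD, and was -0.04 to -0.02 under the 9 processings. With no second sample of either culture, the spread of these gaps between cultures is unknown.

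The a cluster, taken as the mean of miR-23a and miR-27a, had a log2 difference of -0.20, and the b cluster, taken as the mean of miR-23b and miR-27b, one of -0.54. The a cluster thus lay 0.34 above the b cluster, and 0.33 to 0.40 above it under the 9 processings. Within the b cluster, miR-23b lay 0.90 above miR-27b (0.88 to 0.98 under the 9 processings). Within the a cluster, miR-23a lay 0.15 above miR-27a (0.14 to 0.15). miR-24, which either cluster can supply, was at -0.29, beside -0.27 for miR-27a. The 4 members other than miR-27b spanned only 0.21, less than the 0.34 between the cluster means.

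To see how unusual such gaps were on these arrays, the same measure was taken for all miRNAs that share a number and differ by letter and were detected on both arrays. There were 58 such pairs in 24 families, some of them sharing a member, with a median absolute gap of 0.24. On the quantile normalized scale, whose offset pulls dim miRNAs towards 0, the miR-27 pair had the third largest gap. Above it stood miR-487a and miR-487b, of the imprinted DLK1-DIO3 locus, with a gap of 1.02, and miR-29a and miR-29c, whose family represses collagen mRNAs, with one of 0.99. Next below it stood miR-29b and miR-29c with a gap of 0.64. miR-487a was dim, with deposited values of 2.91 in spheroids and 11.1 in the monolayer. Those of miR-487b were 64.8 in spheroids and 191 in the monolayer. By the deposited values miR-487a was lower in spheroids by a larger factor than miR-487b, the reverse of the quantile normalized scale. Both miR-27 spots and all 3 miR-29 spots had deposited values above 100 on both arrays.

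The miR-23 pair was at place 51 of the 58, between miR-193a and miR-193b with a gap of 0.05 and let-7b and let-7f with one of 0.04. On the quantile normalized scale a gap beyond 2 SDs of spot error (0.18) was seen in 55.2% of the 58 pairs, the miR-27 pair included and the miR-23 pair not. On that scale a gap of 2-fold or more was seen in 1.72% of the pairs, and in neither pair of these clusters. Such pairs were not counted in the deposited values, which keep dim miRNAs further apart. There miR-181b (1.96) and miR-181c (-0.19) were more than 2-fold unequal, against a gap of 0.61 after quantile normalization. The miR-27 pair, with a gap of 0.82 in the deposited values, was not. Over the 9 processings the miR-27 pair was at places 3 to 9 and the miR-23 pair at places 50 to 55.

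**Figure D4:**
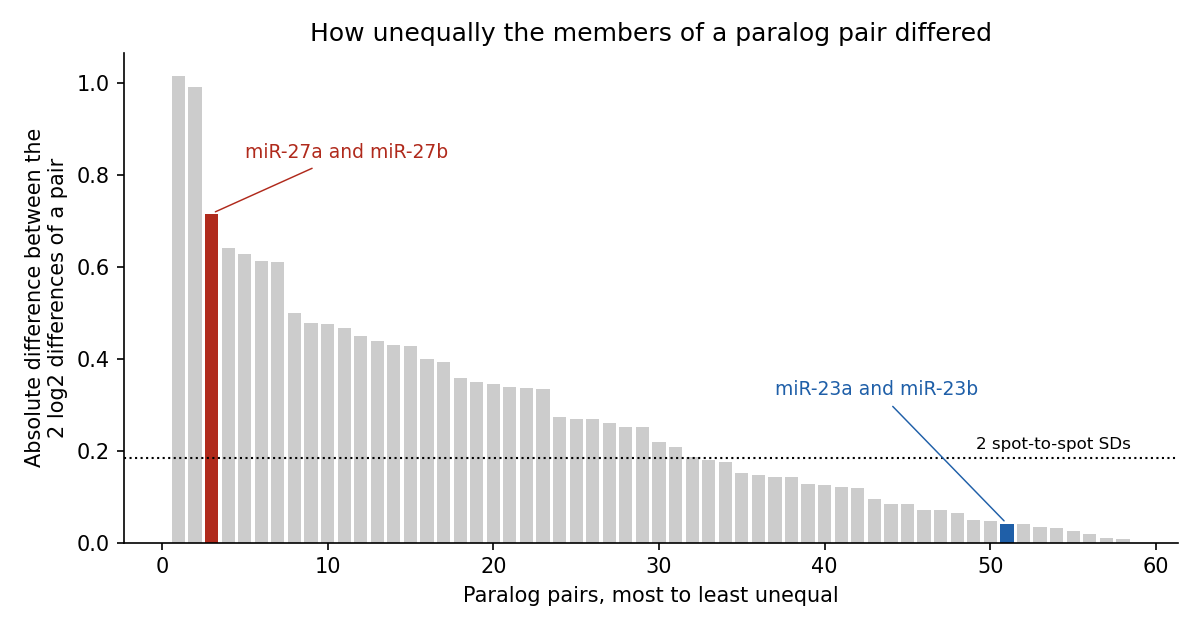
Absolute difference between the 2 log2 differences of each paralog pair (vertical axis, log2), for 58 pairs ordered from most to least unequal (horizontal axis); the miR-27 and miR-23 pairs are coloured and the dotted line is 2 SDs of spot error. The miR-27 pair is the third bar at 0.72, and the miR-23 pair is at place 51 with 0.04.

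The position of the spots and a second scanner column were examined for the members. The miR-27a and miR-27b spots lay in the same block and row of the array, at columns 7 and 1, while miR-23a was in block 30, miR-23b in block 11 and miR-24 in block 12. The column headed as background was read beside each spot and was not subtracted, since over the 291 miRNAs it followed the spot's own intensity, with a median ratio of 0.820 in spheroids and 0.817 in the monolayer. The miR-27 spots were ordinary in this respect, with ratios of 0.750 in spheroids and 0.781 in the monolayer for miR-27a, and of 0.739 in spheroids and 0.799 in the monolayer for miR-27b. The miR-23 and miR-24 spots were not. miR-23b had the lowest ratio of all 291 miRNAs in the spheroid array, 0.104, against 0.498 in the monolayer array. miR-23a had the second highest in the spheroid array, 1.07, against 0.659 in the monolayer array. miR-24 had ratios of 0.413 in spheroids and 0.475 in the monolayer, at place 12 from the lowest on both arrays. If that column were subtracted spot by spot without scaling, miR-23a would have no positive value in spheroids and miR-23b would stand at a log2 difference of 1.31. The gap between miR-27a and miR-27b would then be 0.57. The equal movement of the miR-23 pair therefore rests on leaving that column out.

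By the size of the log2 difference after quantile normalization alone, the nearest miRNAs to miR-27b were miR-22 (-0.95), miR-365 (-0.91) and miR-221 (-0.87). They were sought among 122 others above the blank mean plus 5 SD on both arrays. Deposited values of miR-22 were 29.4 in spheroids and 82.3 in the monolayer, those of miR-365 were 65.0 in spheroids and 133 in the monolayer, and those of miR-221 were 412 in spheroids and 641 in the monolayer. The nearest to the mean of the other 4 members (-0.19) were the dim miR-133b (-0.19), miR-764 (-0.20) and miR-371 (-0.18), with deposited values of 4.27 to 7.04 in spheroids and 9.38 to 10.9 in the monolayer. The likeness held on the quantile normalized scale, whose offset pulls dim miRNAs towards 0. In the deposited values miR-22 and miR-365 were more than 2-fold lower in spheroids, and miR-27b (-0.78) was not. miR-133b, miR-764 and miR-371 were lower in spheroids there, whereas the other members were at 1.03 to 1.15 times their monolayer levels. Likeness was measured over 2 arrays only.

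A list of miRNAs related to these clusters by place, seed or regulation had 11 probes, of which 8 were detected on both arrays. After quantile normalization 0 of the 8 were 2-fold or more apart, against 5.06% of the 178. In the deposited values, which keep dim miRNAs further apart, 1 of the 8 was, against 27% of the 178. That one was the dim miR-181b, with deposited values of 15.6 in spheroids and 4.01 in the monolayer and log2 differences of 1.96 in the deposited values and 0.38 after quantile normalization. The median log2 difference of the 8 was 0.05 on the quantile normalized scale, beside -0.05 over the 178, with 4 members above 0, 3 below and miR-21 at 0. On that scale, whose offset pulls dim miRNAs towards 0, the largest differences were those of miR-221 (-0.87) and miR-222 (-0.46), a clustered pair known for repressing the mRNA of p27, which restrains cell division. miR-221 was below 0 in all 9 processings, whereas miR-222 reached 0.30 with the spike controls. miR-181c and miR-181d, the nearest miRNA neighbours of the a cluster, had log2 differences of -0.23 and 0.11. Deposited values of miR-181c were 54.9 in spheroids and 62.7 in the monolayer, and those of miR-181d were 50.4 in spheroids and 46.5 in the monolayer. Over the 9 processings miR-181c ranged from -0.34 to 0.42 and miR-181d from -0.15 to 0.73. miR-128, whose seed overlaps that of miR-27 in human, was dim, with deposited values of 15.1 in spheroids and 8.84 in the monolayer and a log2 difference of 0.17, which deposited values put at 0.77 and 75th percentile scaling at -0.13.

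The labelled tumour cells carried epithelial miRNAs on both arrays. All 7 of the epithelial markers were detected on both arrays, as were 178 of all 291 miRNAs. The 7 markers had a summed deposited level of 1864 in spheroids and 1246 in the monolayer. Of these, miR-200a and miR-200b were dim. Deposited values of miR-200a were 5.42 in spheroids and 4.57 in the monolayer, and those of miR-200b were 7.84 in spheroids and 4.70 in the monolayer. Among the 7 markers miR-205, a miRNA of basal epithelium, had a log2 difference of -1.90, and the other 6 were above 0. Over the 178 miRNAs 54.5% were below 0. With 75th percentile scaling miR-200a was at -0.36 and miR-200b at -0.26. miR-126, the defining miRNA of endothelium, where the miR-23/27/24 clusters are also abundant, was below the detection limit on both arrays. Of 5 blood cell markers 2 were detected, with a summed level of 6.98 in spheroids and 9.18 in the monolayer, and miR-142, miR-144 and miR-451 were not. Of 4 fibroblast and smooth muscle markers, miR-199 and miR-214 were detected, with a sum of 51.1 in spheroids and 73.3 in the monolayer, and miR-143 and miR-145 were not. Of 8 striated muscle markers 5 were detected, with a sum of 22.0 in spheroids and 35.1 in the monolayer. The highest striated muscle marker was miR-499 in spheroids, at only 8.80, and miR-133b in the monolayer, at only 10.1. All these counts of detected markers stand beside 178 of 291 over all miRNAs. The part of these markers in the miR-27b difference was not tested. In a bulk sample, fewer cells carrying a miRNA and less of it per cell cannot be told apart.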

How the data were processed

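Per the file headers, the deposited scanner tables give each spot's median intensity at 635 nm, neither background corrected nor normalized, and record fits between scans at 3 gains. No source used here names the scanner or its software. The deposited value table holds normalized intensities. Set against the scanner values, it equals the intensity minus the blank mean, times 0.498 for spheroids and 0.611 for the monolayer. The highest and lowest 5% of blank spots were left out, which left 1268. Intensities of all spots were corrected with limma's normexp (offset 50), log2 transformed and quantile normalized (291 miRNAs), with limma 3.58.1 in R 4.3.3, and tables were made with pandas 2.3.3 in Python 3.11.15. The normalization was tested on a simulated pair of arrays, in which equal numbers of miRNAs were raised and lowered. That simulation cannot show how the normalization treats a change shared by many bright miRNAs. The offset pulls differences of dim miRNAs towards 0. A miRNA was detected above the blank mean plus 2 SD, and 2-fold apart at an absolute log2 difference of at least 1. The 8 other processings were an offset of 16, blank subtraction, no background correction, median, 75th percentile or no scaling, the deposited values, and spike control scaling of blank-subtracted values. Control probes were kept for the spot error when all 8 spots exceeded the blank mean plus 5 SD on both arrays.

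The members, lists, rules and alternatives were chosen with earlier results of these data known. Named were all members, the 3 miRNAs nearest in difference to miR-27b and to the mean of the other members, the 2 largest differences of the related list, the 3 most unequal paralog pairs and the pairs next to each member pair. miR-181c, miR-181d and miR-128 were named besides for their place or seed. Marker names, miRNAs that passed a member in brightness and the pair of miR-181b and miR-181c were added after their values were seen. A search for members' seeds in other array miRNAs was not run.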

Additional observations from a re-analysis of the deposited data

How the results depend on the processing

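The gap of 0.34 between the cluster means and that of -0.04 between miR-23a and miR-23b moved by less than the spot error under all 8 other processings. Processings that differ only by a factor on a whole array cannot differ in these gaps. The gap between miR-27a and miR-27b was 0.82 both in deposited values and under spike control scaling, and 0.57 when the column headed as background was subtracted, a setting chosen after seeing the data that gives no value for miR-23a or for the cluster means. The median of the members, -0.27 after quantile normalization, was 0.28 with median scaling, 0.00 with the 75th percentile, 0.38 without scaling, 0.10 in the deposited values, 0.71 with the spike controls and 0.51 with that column subtracted. In the same order, miR-23a was at 0.37, 0.09, 0.46, 0.18 and 0.79 with no sixth value, miR-23b at 0.39, 0.11, 0.48, 0.21, 0.82 and 1.31, and miR-24 at 0.28, 0.00, 0.38, 0.10, 0.71 and 0.53. miR-27a was at 0.23 with median scaling, -0.05 with the 75th percentile, 0.32 without scaling, 0.04 in the deposited values, 0.65 with the spike controls and 0.50 with that column subtracted. miR-27b was at -0.07 with that column subtracted. What that column measures, and so the cause of the values with it subtracted, was not tested. The count of members 2-fold apart, 0 after quantile normalization, was 1 with an offset of 16 and 1 with the blank mean subtracted (miR-27b in both), and 1 with that column subtracted (miR-23b). The count of paralog pairs 2-fold unequal was taken only after quantile normalization. It was 1, and 0 among the 41 pairs above the blank mean plus 5 SD, where miR-487a is left out and the miR-27 pair is at place 2. At that limit 6.3% of 127 miRNAs were 2-fold apart. No paired analysis was possible because each culture had 1 sample. All 5 members stood well above the blank spots, but the column headed as background was a limit for miR-23a, miR-23b and miR-24. The lack of a second culture was a limit for all 5.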
